A study of Mus musculus with 36 samples.

Results

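Heart RNA of 12-week-old male C57BL/6NCrl mice was compared with that of 8-week-old ones, both ages at which laboratory mice are used as young adults. Each age had 4 libraries, labelled as biological replicates, and all mice were wild type and untreated. The comparison uses 8 of the 36 libraries of the series, which also holds kidney and liver and a 10-week group. The 4 heart libraries of 10 weeks entered the model only to estimate the spread between animals, and their values are given as a description. A gene was a member when its mean count reached 10 in the 8-week or the 12-week libraries, which held for 15014 of the 78239 genes in the files. The animals were of one sex and one inbred strain and were anaesthetised with ketamine and xylazine before the organs were taken. They had been bought at one age and kept until they were sacrificed, so age and time in the animal facility cannot be told apart. The study housed several mice per cage. The labels do not give the cage, so libraries of the same age can come from cage mates, and the test held no term for it.

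The ventricle of the adult mouse runs mainly on fatty acids. Its contraction depends on calcium that is released from and returned to the sarcoplasmic reticulum at every beat, and its thick filaments are built on the alpha form of myosin heavy chain, while the beta form belongs to foetal and stressed muscle. Immediate early genes encode transcription factors and phosphatases that are transcribed within minutes of a hormonal, mechanical or metabolic stimulus, without new protein synthesis, and their transcripts decay as fast. Between cardiomyocytes lie endothelial cells and fibroblasts, the latter producing the collagens, proteoglycans and glycoproteins of the matrix. In bulk RNA, fewer cells of a type and less RNA per cell of that type cannot be told apart.

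The libraries held between 21846718 and 29791297 read pairs on genes. Levels are given as counts per 1000000 (CPM), scaled by library size and composition. Ventricular markers defined the tissue in every library: the 12 ventricular genes summed to 62356 to 65247 CPM at 8 weeks and 62934 to 78104 CPM at 12 weeks. Of the atrial markers, *Myl7* reached at most 0.757 CPM, *Sln* 0.241 CPM and *Mybphl* 0.201 CPM in the 8 libraries, and *Bmp10* had no read. Others on that list were read: *Nppa* ranged from 3.3 to 27.5 CPM at 8 weeks and from 5.61 to 12.5 CPM at 12 weeks. *Clec3b* ranged from 27.6 to 36.9 CPM and from 23.3 to 33.7 CPM. The atrial list summed to 43.95 to 73.47 CPM at 8 weeks and 39.06 to 53.85 CPM at 12 weeks, and none of its 5 tested genes passed. Epicardial and mesothelial markers varied between libraries, with sums of 7.50 to 9.08 CPM at 8 weeks and 6.31 to 24.9 CPM at 12 weeks, and none of the 8 tested passed the test. Markers of lung epithelium summed to at most 0.585 CPM, and red cell markers spread from 213 to 654 CPM at 12 weeks against 400.0 to 529.9 CPM at 8 weeks.

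Between 8 and 12 weeks, 326 genes rose (2.17% of those tested) and 363 fell (2.42%), by the quasi-likelihood test of edgeR at an adjusted p under 0.05. The changes were small: the median size among the 689 was 0.45 on the log2 scale, and only 29 genes (0.193%) rose and 41 (0.273%) fell by more than 2-fold. The 4 values of 1 age did not overlap with those of the other for 629 of the 689, and for 1893 of all genes (12.6%). The median log2 fold change of all genes was -0.01. Over the same 15014 genes, the same test called 5 genes higher and 2 lower in kidney, and 16 higher and 5 lower in liver. These genes were chosen by their heart counts, so genes read mainly in kidney or liver were left out. The counts therefore do not rank the organs by how much they changed.

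The number of calls depended on single libraries. Of the 12-week libraries, leaving out replicate 1, 2 or 3 reduced the 689 calls to 226, 223 and 199, while without replicate 4 there were 1851. Of the 8-week libraries, leaving out replicate 2, 3 or 4 gave 248, 249 and 195 calls, and leaving out replicate 1 gave 758. In these 8 refits, 127 of the 689 genes passed every time. In 12-week replicate 4, 0.503% of pairs were unmapped, against 1.07% to 1.43% in the other heart libraries. Its ventricular genes summed to 78104 CPM, against 62356 to 69790 CPM in the other 8- and 12-week libraries. The part of these differences in the calls was not tested.

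The called genes also differed from the rest in the composition of their transcripts. The canonical transcript had a median GC content of 57.7% in the genes that fell and 47.8% in those that rose, against 49.9% in all genes. Its median length was 2735 nucleotides in the genes that fell and 5128 in those that rose, against 3214 in all. Among the protein-coding genes of the highest quintile of GC content (2593 genes, 55.9% to 75.5%), 218 fell and 4 rose, and in the longest quintile (2595 genes) 139 rose and 25 fell. The genes of this highest GC quintile lay above their mean over the heart libraries by 0.0702 to 0.126 on the log2 scale in the 8-week libraries. At 12 weeks they lay below it by values of -0.125, -0.144 and -0.160 in replicates 1 to 3, but above it by 0.0413 in replicate 4. Such a trend moves with the age groups in 7 of the 8 libraries, and its part in the calls was examined by refitting with each library's trend in GC content and length taken out. That correction left 137 genes higher (0.912%) and 135 lower (0.899%), of which 117 and 102 were also called without it. The correction would equally take out a change with age that follows GC content or length, and both cannot be told apart. Below, the correction is named where it ends a call, and 98 genes (62 higher and 36 lower) passed the corrected test as well as all 8 refits.

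**Figure D1:**
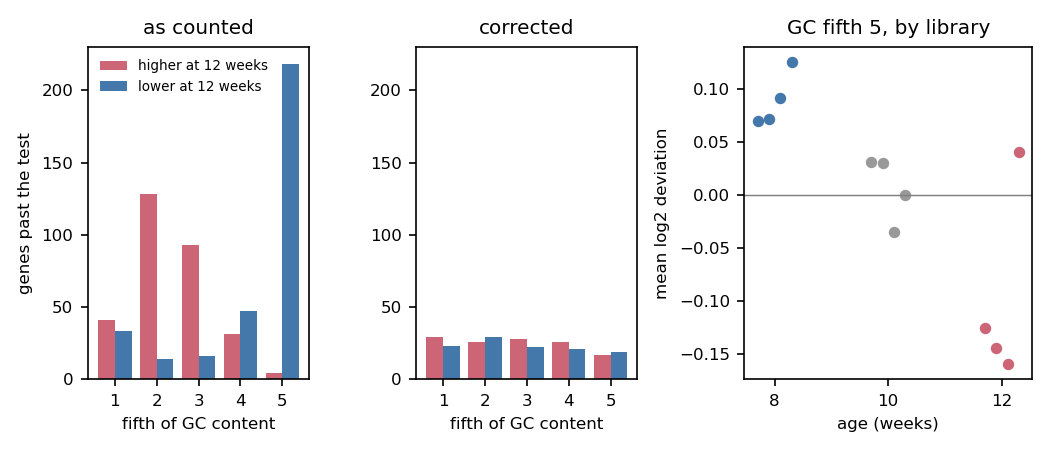
Left and middle panels: number of protein-coding genes higher (red) or lower (blue) at 12 than at 8 weeks in each quintile of transcript GC content (1 lowest, 5 highest), as counted and after correction for GC content and length. Right panel: mean log2 deviation of the genes of the highest quintile from their mean over all heart libraries, 1 point per library. In the highest quintile, 218 genes were lower and 4 higher before the correction and 19 and 17 after it, and 12-week replicate 4 sat at 0.0413, apart from the other 12-week libraries.

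Among the pathway lists, that of immediate early genes held the highest share of called genes, 45.8%. Among all genes 2.17% were called higher and 2.42% lower, and the share of each list below is to be read beside these. Of 24 tested, 11 fell and 0 rose, with a median log2 change of -0.63, and after correction 7 fell with a median of -0.50. The 11 were *Nr4a1*, *Nr4a2*, *Klf2*, *Klf4*, *Klf6*, *Dusp1*, *Fosl2*, *Csrnp1*, *Atf3*, *Ier3* and *Ier5*. *Nr4a1*, an orphan nuclear receptor (GRCm39, chr15:101151980-101172681, plus strand), measured 58.0, 61.1, 105 and 60.0 CPM at 8 weeks and 14.8, 17.1, 12.1 and 8.53 CPM at 12 weeks. All 12-week values lay far below all 8-week values, and the log2 change was -2.44 (SE 0.33, adjusted p = 0.0013, corrected -2.28, adjusted p = 0.00375). At 10 weeks its mean was 29.8 CPM ± 16.7 (SD, n = 4).

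*Klf2*, an endothelial transcription factor that responds to shear stress, measured 136, 111, 120 and 101 CPM at 8 weeks and 63.7, 52.0, 47.1 and 45.6 CPM at 12 weeks. Its groups did not overlap either (log2 change -1.17, SE 0.17, adjusted p = 0.00175, corrected -0.93, adjusted p = 0.0119). *Dusp1*, a phosphatase that switches off MAP kinases, went from 92.0 to 108 CPM at 8 weeks down to 58.3 to 71.0 CPM at 12 weeks (log2 change -0.67, SE 0.10, adjusted p = 0.00294). *Fosl2*, a subunit of the AP-1 factor, fell by 0.75 on the log2 scale (SE 0.14, adjusted p = 0.00758). These 4 genes passed all 8 refits and the correction. The other 7 were less stable: *Klf6*, *Atf3* and *Nr4a2* passed the corrected test but only 3, 3 and 2 of the refits, and *Csrnp1*, *Klf4*, *Ier3* and *Ier5* did not pass the corrected test (adjusted p from 0.0517 to 0.0701) and passed 4, 3, 1 and 2 refits. The best known members of the list did not pass: *Fos* stood at 3.81 CPM ± 1.72 at 8 weeks and 1.89 ± 0.538 at 12 weeks (SD, n = 4, adjusted p = 0.114), and *Egr1* at 4.17 to 8.67 CPM and 6.52 to 7.93 CPM (adjusted p = 0.598).

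The stretches before the start of 3 of these genes are shown because the cAMP response element, the site of the factor CREB, lies close to the start of several of them. Given are the 250 bases before the annotated start (RefSeq, GRCm38.p6), 5′ to 3′ on the strand of the gene, with the 5-base core of that element, TGACG, or its complement CGTCA, in capitals.
Nr4a1 (chr15:101266596-101266845, plus strand): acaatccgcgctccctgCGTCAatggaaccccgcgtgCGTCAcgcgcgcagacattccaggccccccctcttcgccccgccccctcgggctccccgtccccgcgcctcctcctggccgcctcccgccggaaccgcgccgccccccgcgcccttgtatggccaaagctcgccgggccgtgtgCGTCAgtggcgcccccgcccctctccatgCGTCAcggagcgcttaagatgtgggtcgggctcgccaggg
Nr4a2 (chr2:57124004-57124253, minus strand): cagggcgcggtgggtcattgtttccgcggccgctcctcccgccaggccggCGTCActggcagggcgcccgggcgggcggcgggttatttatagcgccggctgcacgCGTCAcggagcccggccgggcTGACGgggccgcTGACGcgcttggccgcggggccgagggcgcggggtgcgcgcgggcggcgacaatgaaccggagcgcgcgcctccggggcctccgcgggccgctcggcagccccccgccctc
Dusp1 (chr17:26508473-26508722, minus strand): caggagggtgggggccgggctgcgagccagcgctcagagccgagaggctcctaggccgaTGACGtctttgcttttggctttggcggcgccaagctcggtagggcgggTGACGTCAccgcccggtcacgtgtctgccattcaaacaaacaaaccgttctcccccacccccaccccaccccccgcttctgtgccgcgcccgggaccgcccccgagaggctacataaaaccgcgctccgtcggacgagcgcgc
*Nr4a1* and *Nr4a2* each held 4 copies of the core, and *Dusp1* held 3, of which 2 overlap in the complete element TGACGTCA. The genes shown are those of the 11 with the most copies in a single window, and *Fosl2*, *Ier3*, *Ier5* and *Klf6* held none. The core was found, on either strand, before the start of 7 of the 11 genes, against 17.8% of the 32851 windows of that length in the table and 19.8% of its 27025 genes. Windows matched for GC content and the uncalled members of the list were not counted, so these shares do not tie the core to the fall. The complete element was in 1.55% of all windows. These matches are a description of the letters and were not tested, and both the list and the motif were chosen with the calls known.

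**Figure D2:**
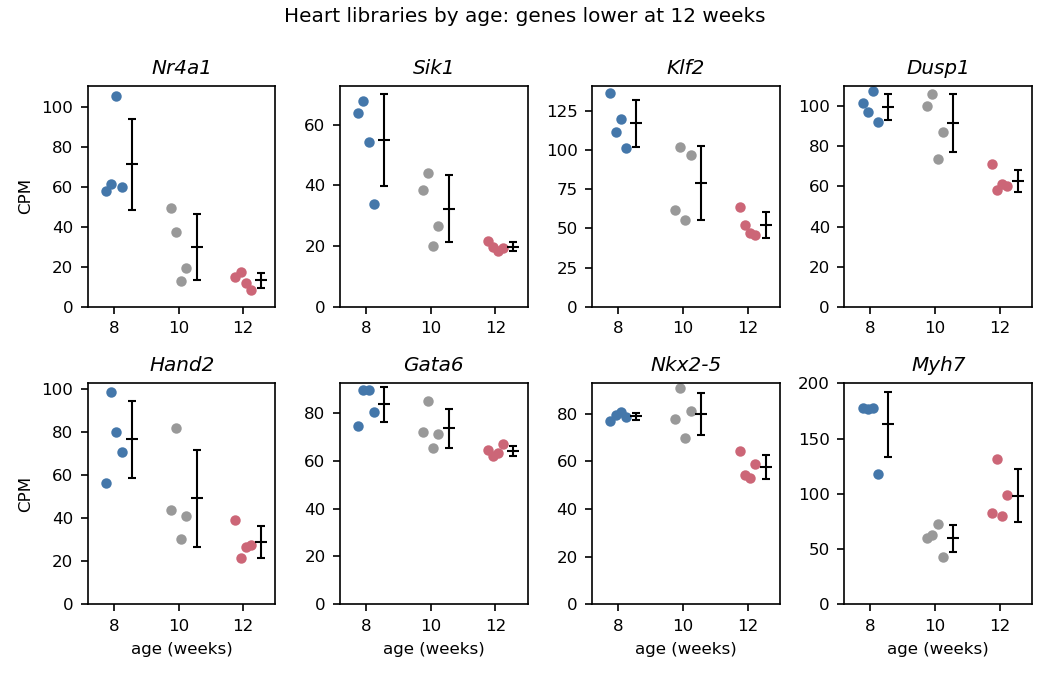
CPM (linear axis from 0) of 8 genes in each heart library at 8, 10 and 12 weeks, 1 point per library, with the mean and SD of the 4 libraries in black. *Nr4a1*, *Sik1*, *Klf2*, *Dusp1*, *Hand2*, *Gata6* and *Nkx2-5* lay lower in all 12-week than in all 8-week libraries, while *Myh7* overlapped between 8-week replicate 4 (118 CPM) and 12-week replicate 2 (132 CPM).

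Further genes fell that were named for their low adjusted p or the size of their change, or as members of other lists. *Sik1*, a salt-inducible kinase that is itself induced by cAMP, measured 63.9, 67.8, 54.4 and 33.9 CPM at 8 weeks and 21.8, 19.7, 18.3 and 19.4 CPM at 12 weeks (log2 change -1.48, SE 0.21, adjusted p = 0.00181). *Irs2*, an adaptor of the insulin receptor, measured 22.2, 20.7, 29.4 and 17.3 CPM against 10.6, 11.6, 11.2 and 10.4 CPM (log2 change -1.03, SE 0.13, adjusted p = 0.0013). *Irf2bp2*, a transcriptional corepressor, went from a mean of 68.3 CPM ± 4.51 to 38.1 ± 6.10 (SD, n = 4, log2 change -0.84, adjusted p = 0.0013). In none of the 3 did the ages overlap. *Rhob*, a small GTPase, and *Ptms*, parathymosin, fell by 0.62 and 0.61 on the log2 scale (both adjusted p = 0.00175), and all 5 genes passed the corrected test and all 8 refits.

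Of the 21 tested genes that glucocorticoids induce, 6 fell and 2 rose (38.1% called), with a median log2 change of -0.43 (corrected, 6 fell and 1 rose, median -0.35). Those that fell were *Dusp1*, which the immediate early list also holds, *Ddit4*, an inhibitor of mTOR signalling, *Nfkbia*, the inhibitor of NF-κB, *Errfi1*, *Tsc22d3* and *Arrdc3*. *Ddit4* measured 60.2, 161, 187 and 166 CPM at 8 weeks and 73.7, 38.6, 55.5 and 65.6 CPM at 12 weeks. The groups overlapped because 8-week replicate 1 lay as low as the 12-week libraries (log2 change -1.30, SE 0.28, adjusted p = 0.02, 3 of 8 refits). *Tsc22d3*, a leucine zipper protein among the most direct targets of the receptor, showed the same library apart, with 139 CPM against 218 to 222 CPM in the others of 8 weeks and 116 to 140 CPM at 12 weeks (log2 change -0.62, adjusted p = 0.0343, 2 of 8 refits). *Nfkbia* fell by 0.69 without overlap (adjusted p = 0.0164, 6 of 8 refits). *Fkbp5*, the most used marker of glucocorticoid action, ranged from 39.5 to 157 CPM at 8 weeks and from 42.2 to 147 CPM at 12 weeks and did not pass (adjusted p = 0.621). The pair that rose, *Pdk4* and *Angptl4*, are also targets of the fatty acid receptor PPAR alpha and are described with that list.

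Of 26 tested transcription factors of the cardiomyocyte, 3 fell and 0 rose (11.5% called). *Hand2*, a basic helix-loop-helix factor of the right ventricle, measured 56.5, 98.8, 80.2 and 70.9 CPM at 8 weeks and 39.2, 21.5, 26.8 and 27.7 CPM at 12 weeks. It fell the most (log2 change -1.42, SE 0.24, adjusted p = 0.00564, corrected -1.23, adjusted p = 0.0209) and passed all 8 refits. *Gata6*, a zinc finger factor, measured 74.9, 89.8, 89.9 and 80.4 CPM against 64.5, 62.3, 63.2 and 67.0 CPM (log2 change -0.38, SE 0.08, adjusted p = 0.0221, corrected adjusted p = 0.0233), but passed only 2 of the 8 refits. *Gata6os*, transcribed from the opposite strand beside it, fell by 0.61 (adjusted p = 0.01, all 8 refits). The counts ignore strand, so reads where both genes overlap could not be assigned to either. *Nkx2-5*, a homeobox factor with a transcript of 67.1% GC, measured 77.1, 79.7, 80.7 and 78.8 CPM against 64.2, 54.4, 53.0 and 59.1 CPM. It passed all 8 refits (log2 change -0.46, SE 0.08, adjusted p = 0.00883) but not the corrected test (-0.18, adjusted p = 0.128). The median of the list was -0.19 and became -0.03 with the correction.

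Contractile genes changed little as a group. Of 36 tested sarcomere genes, 2 rose and 1 fell (8.33% called), and the median was -0.01. *Myl2*, the regulatory light chain of the ventricle, measured 5338, 5224, 4830 and 4760 CPM at 8 weeks and 7385, 5913, 6301 and 6968 CPM at 12 weeks. It rose without overlap (log2 change 0.40, SE 0.10, adjusted p = 0.033, corrected 0.46, adjusted p = 0.0186), though in only 3 of the 8 refits. *Ttn*, the giant elastic protein of the sarcomere, measured 2545, 1439, 1311 and 1249 CPM against 3691, 3229, 2357 and 2543 CPM, so that 8-week replicate 1 lay within the 12-week range. It passed 3 of the refits. Its canonical transcript is 107543 nucleotides long, and the log2 change of 0.85 (adjusted p = 0.0209) became 0.07 (adjusted p = 0.784) with the correction. *Myh7*, the beta myosin heavy chain, measured 178, 177, 178 and 118 CPM against 82.5, 132, 79.6 and 98.5 CPM, with 59.5 CPM ± 12.5 at 10 weeks (SD, n = 4). It fell by 0.73 (adjusted p = 0.0267, corrected adjusted p = 0.0554, 4 of 8 refits). *Myh6*, the alpha form, stood at 22943 CPM ± 1676 at 8 weeks and 24430 ± 2208 at 12 weeks (adjusted p = 0.608).

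Among 33 tested genes of calcium handling, 5 rose and 0 fell (15.2% called), with a median of 0.10 (corrected 0.05). *Slc8a1*, the sodium-calcium exchanger that removes calcium from the cell, measured 306, 328, 321 and 264 CPM at 8 weeks and 481, 500, 491 and 356 CPM at 12 weeks. The lowest 12-week value, in replicate 4, still lay above all 8-week values (log2 change 0.58, SE 0.11, adjusted p = 0.00883, corrected 0.50, adjusted p = 0.0197). *Casq2*, calsequestrin, which stores calcium in the reticulum, measured 888, 840, 828 and 750 CPM against 1210, 1133, 1313 and 993 CPM (log2 change 0.49, SE 0.09, adjusted p = 0.0103, corrected 0.39, adjusted p = 0.0273). Both passed all 8 refits. *Ryr2*, the release channel, rose by 0.47 (adjusted p = 0.0166) and passed all refits, but its transcript of 16853 nucleotides lost the call with the correction (0.20, adjusted p = 0.143), as did *Asph* (0.33, corrected 0.21) and the kinase *Camk2d* (0.30, corrected 0.17). *Hrc* and *Camk2b* passed only with the correction (0.29 and 0.55, adjusted p = 0.0431 and 0.0178), which makes 4 in all.

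**Figure D3:**
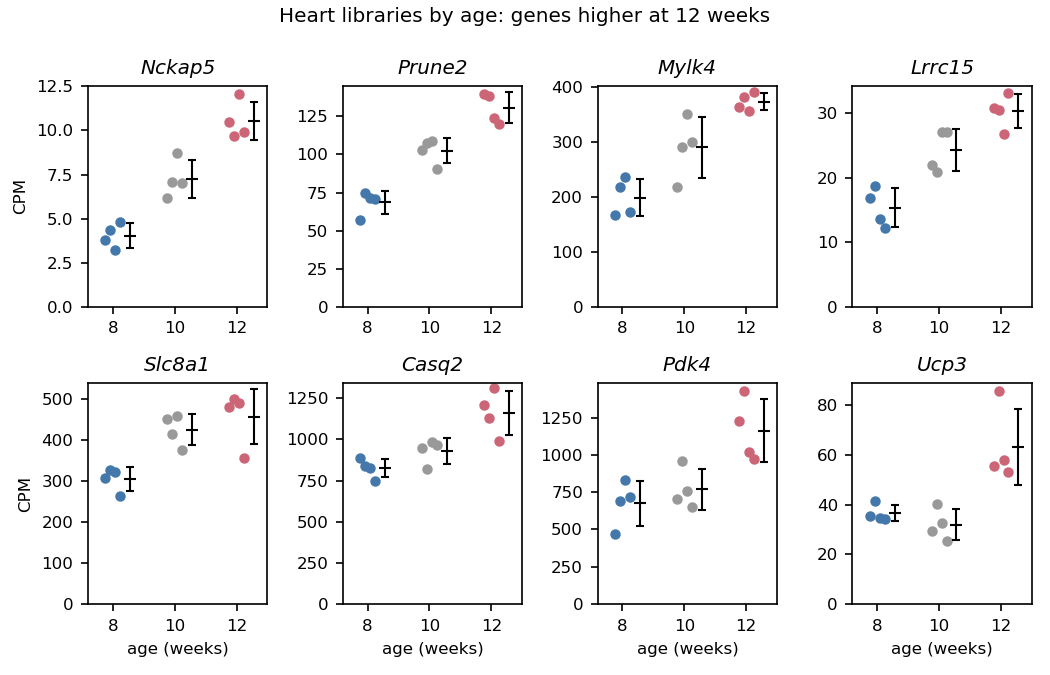
CPM (linear axis from 0) of 8 genes in each heart library at 8, 10 and 12 weeks, 1 point per library, with the mean and SD of the 4 libraries in black. In all 8 panels every 12-week library lay above every 8-week library, for instance *Nckap5* at 9.67 to 12.1 CPM against 3.19 to 4.78 CPM.

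Genes of fuel choice changed in small numbers, and 3 of the 24 tested PPAR alpha targets (12.5%) rose while none fell. *Pdk4*, the kinase that turns off pyruvate dehydrogenase and so spares glucose, measured 470, 689, 832 and 715 CPM at 8 weeks and 1229, 1431, 1022 and 970 CPM at 12 weeks (log2 change 0.78, SE 0.16, adjusted p = 0.0155). *Ucp3*, an uncoupling protein of muscle mitochondria, measured 35.6, 41.4, 34.8 and 34.5 CPM against 55.6, 85.9, 58.0 and 53.2 CPM (log2 change 0.79, SE 0.14, adjusted p = 0.00883). Neither overlapped between ages, and both kept their call with the correction and in all 8 refits. *Angptl4*, a secreted inhibitor of lipoprotein lipase, rose from 3.89 to 5.61 CPM up to 7.36 to 18.0 CPM (log2 change 1.26, SE 0.31, adjusted p = 0.034), but missed the corrected test (adjusted p = 0.0588) and passed 2 of the refits. *Ppara* itself, with 32.5 CPM ± 6.09 and 44.8 ± 5.55 (SD, n = 4), did not pass (adjusted p = 0.0629).

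Of 30 tested genes of fatty acid uptake and oxidation, 1 rose and 2 fell (10.0% called). *Acsl1*, which activates fatty acids to acyl-CoA, rose from 783 to 902 CPM up to 1041 to 1143 CPM (log2 change 0.33, adjusted p = 0.0209, corrected adjusted p = 0.0431, all refits). *Fabp4*, a fatty acid carrier of fat and endothelial cells, and the transporter *Slc27a1* fell by 0.60 and 0.41 (adjusted p = 0.0227 and 0.041), with 5 and 2 of the refits, and *Slc27a1* missed the corrected test (adjusted p = 0.0719). None of 30 glycolysis genes and none of 27 genes of the tricarboxylic acid cycle and ketone use passed, with medians of -0.08 and 0.02.

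Calls among genes of fibroblasts and matrix were few. Of 43 tested matricellular proteins and proteoglycans 3 rose (*Lum*, *Vcan* and *Tnc*), and of 36 collagens and collagen enzymes *Col6a3* rose and *Bmp1* fell. Called genes made up 6.98% and 5.56% of these lists, beside 2.17% higher and 2.42% lower among all genes. *Vcan*, *Tnc* and *Bmp1* each passed only 2 of the 8 refits and lost the call with the correction (adjusted p = 0.144, 0.0768 and 0.224). *Col6a3*, a chain of the collagen VI microfibril, measured 25.4, 19.1, 17.0 and 19.0 CPM at 8 weeks and 34.6, 37.8, 26.6 and 27.6 CPM at 12 weeks (log2 change 0.65, SE 0.13, adjusted p = 0.0157, corrected 0.61, adjusted p = 0.039, all refits). The fibrillar collagens did not pass: *Col1a1* stood at a log2 change of -0.04 (adjusted p = 0.883) and *Col3a1* at 0.41 (adjusted p = 0.15). *Pdgfra*, the growth factor receptor that marks cardiac fibroblasts, measured 30.5, 30.5, 31.8 and 33.6 CPM against 44.4, 46.1, 42.6 and 38.5 CPM (log2 change 0.44, SE 0.07, adjusted p = 0.00507, corrected 0.31, adjusted p = 0.0273, all refits). *Lum*, the proteoglycan lumican, rose by 0.38 (adjusted p = 0.031, corrected adjusted p = 0.0153) in 2 of the refits. Over the 12 fibroblast markers as a whole, however, the summed level was 1825 to 1964 CPM at 8 weeks and 1810 to 1947 CPM at 12 weeks, and 2 of the 12 rose.

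Nuclear genes of the respiratory chain were mostly below 0, with few calls. Of 42 tested subunits of complexes III to V, 33 had a log2 change below 0 and the median was -0.17, but only *Cox4i1* and *Uqcrb* fell and *Uqcrc2* rose. Called genes made up 7.14% of this list, beside 2.17% higher and 2.42% lower among all genes, whose median was -0.01. *Cox4i1*, a subunit of cytochrome c oxidase, measured 91.2, 71.3, 63.1 and 69.9 CPM at 8 weeks and 55.5, 42.5, 44.7 and 48.3 CPM at 12 weeks (log2 change -0.63, SE 0.13, adjusted p = 0.0142). In the corrected test these 3 genes did not pass (adjusted p from 0.0637 to 0.0762), while *Uqcrq* (-0.34, adjusted p = 0.0439) and *Atp5pd* (0.37, adjusted p = 0.0361) did, and the median of the list was -0.08. Of 37 complex I subunits, *Ndufs7* fell (log2 change -0.41, adjusted p = 0.0308, corrected adjusted p = 0.248), and the list's median of -0.15 became -0.06.

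Of the 13 mitochondrially encoded proteins 12 had a log2 change below 0 and 1 fell (7.69% called). That gene, *mt-Atp6*, measured 9.75, 11.7, 14.2 and 10.2 CPM at 8 weeks and 8.06, 5.16, 4.17 and 2.61 CPM at 12 weeks (log2 change -1.21, SE 0.30, adjusted p = 0.0341, corrected adjusted p = 0.0727, 3 of 8 refits). *mt-Cytb* stood at 49144 CPM ± 378 and 43868 ± 1823 and did not pass (SD, n = 4, adjusted p = 0.278). The median of the 13 genes was -0.25 (corrected -0.13), and 6 of them did not overlap between ages, against 12.6% of all genes. Their summed level was 285322 to 302533 CPM at 8 weeks and 253345 to 272655 CPM at 12 weeks. At 10 weeks it was 262237 to 328902 CPM, and the sums were not tested. *mt-Atp6* shares near-identical sequence with a nuclear copy on chromosome 1, where *Gm28661* went from 212 to 292 CPM down to 9.27 to 76.4 CPM (log2 change -2.68, adjusted p = 0.00345) and *Gm29216* fell by 1.24 (adjusted p = 0.0274). Reads that map to several places were not counted, so these levels rest on reads placed in 1 copy. The change of each gene is uncertain for that reason. The share of pairs that map to several places was 17.3% to 19.1% in the 8-week and 16.2% to 16.6% in the 12-week heart libraries. Its part in these values was not tested. Of 78 tested cytosolic ribosomal proteins 3 rose (*Rpl36a*, *Rps25* and *Rpl35a*, by 0.49, 0.48 and 0.36) and 2 fell (*Rplp0* and *Rplp2*, by 0.38 and 0.30), which made up 6.41% of the list. *Rplp2* lost the call with the correction (adjusted p = 0.115). Of these 5, *Rpl36a* alone passed all 8 refits.

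**Figure D4:**
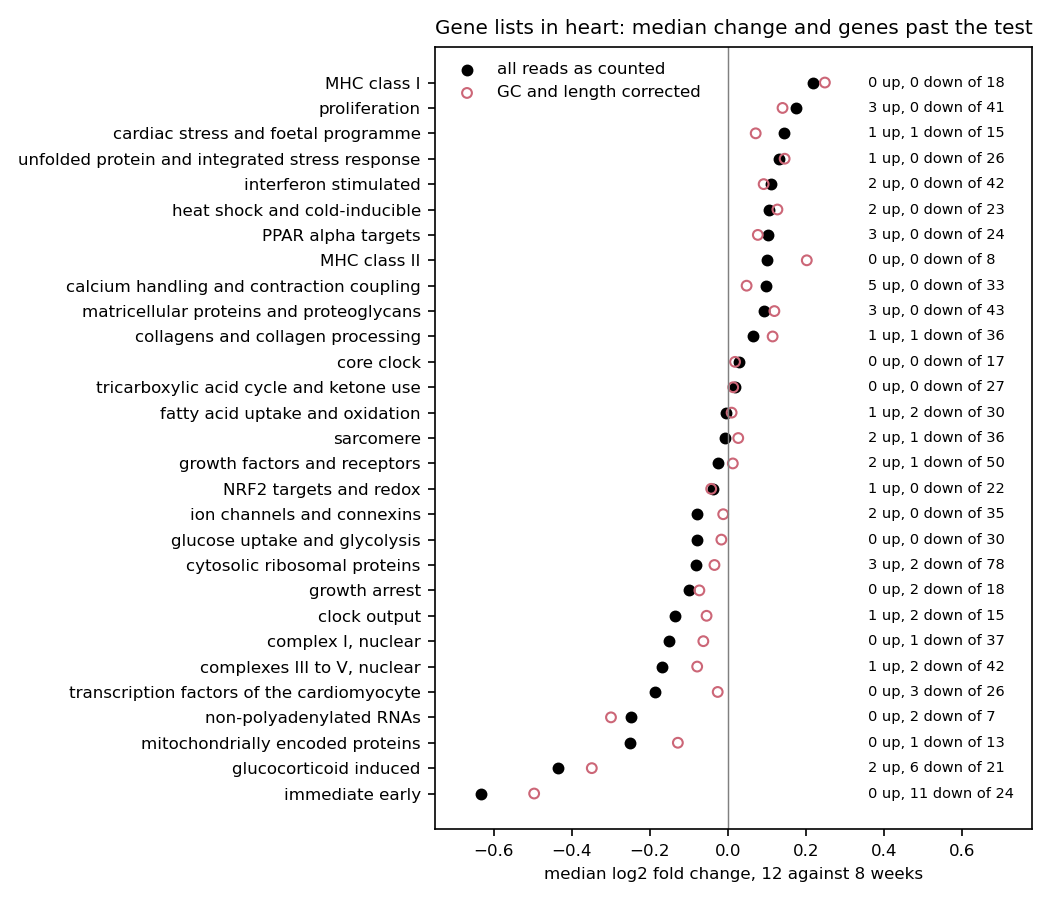
Median log2 fold change at 12 against 8 weeks of each pathway list, as counted (filled) and with the GC and length correction (open), with the number of genes past the test in each direction and the number tested at the right. Among these lists that of immediate early genes lies lowest at -0.63, followed by the genes induced by glucocorticoids at -0.43, and the lists of respiratory chain subunits and cardiomyocyte factors move towards 0 with the correction.

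Other lists held few calls. Called genes made up 7.32% of the tested proliferation genes, 4.76% of the interferon-stimulated and 8.70% of the heat shock and cold-inducible genes. Of 41 proliferation genes, *Cenpf*, a kinetochore protein, rose from 13.3 to 22.6 CPM up to 26.6 to 49.1 CPM (log2 change 1.06, SE 0.20, adjusted p = 0.011, corrected 0.89, adjusted p = 0.0303), and *Ccnd1* and *Mcm3* rose by 0.52 and 0.54, both without passing the corrected test. *Cdkn1b*, an inhibitor of the cell cycle, fell by 0.37 (adjusted p = 0.0256, corrected adjusted p = 0.0197, 4 of 8 refits). Of 42 interferon-stimulated genes *Irgm2* and *Gbp2* rose by 0.75 and 0.57 (adjusted p = 0.0129 and 0.0438), the former in all refits and the latter in 2 and not with the correction (adjusted p = 0.0806). Of 23 heat shock and cold-inducible genes *Cirbp* and *Hsph1* rose by 0.36 and 0.67 (adjusted p = 0.0241 and 0.0324), in 5 and 3 refits, and *Hsph1* lost the call with the correction (adjusted p = 0.0917).

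None of the 17 tested core clock genes and none of the MHC class I (18) and class II (8) genes passed. Of 15 tested genes of the clock's output, *Tsc22d3* and *Coq10b* fell and *Herc2* rose, by 0.62, 0.48 and 0.35. With the correction *Tsc22d3* alone passed, and the 3 genes passed 2, 2 and 1 of the refits. *Per1*, a repressor of the clock that glucocorticoids also induce, was nearest to the threshold with 97.3 to 126 CPM at 8 weeks and 59.3 to 87.2 CPM at 12 weeks (log2 change -0.66, adjusted p = 0.0613). It passed 1 of the 8 refits, whose adjusted p ran from 0.0324 to 0.15. *Nr1d1* stood at 0.72 (adjusted p = 0.0997), *Per2* at -0.54 (adjusted p = 0.251) and *Bmal1* at 0.86 (adjusted p = 0.307), the last with 8-week values of 1.05 to 1.52 CPM and 12-week values of 0.968 to 3.78 CPM. The time of day of each dissection is not given in the sources used here, and its part in the clock and immediate early values was not tested. Of the endothelial markers *Cldn5* and *Tie1* fell by 0.80 and 0.27 (adjusted p = 0.017 and 0.0343), but neither passed the corrected test (0.0684 and 0.297), and the summed markers were 1162 to 1227 CPM at 8 weeks and 1084 to 1267 CPM at 12 weeks.

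The lowest adjusted p-values belonged to *Nckap5* and *Prune2*. *Nckap5*, which encodes a protein of the cytoskeleton (GRCm39, chr1:125841251-126758536, minus strand), measured 3.77, 4.38, 3.19 and 4.78 CPM at 8 weeks and 10.5, 9.67, 12.1 and 9.91 CPM at 12 weeks, with 7.25 CPM ± 1.07 at 10 weeks (SD, n = 4). The ages did not overlap, and the 10-week libraries lay between them (log2 change 1.38, SE 0.14, adjusted p = 0.000123, corrected 1.25, adjusted p = 0.0006). *Prune2* (chr19:16933482-17201320, plus strand) measured 57.2, 74.6, 71.7 and 70.8 CPM against 140, 139, 124 and 120 CPM (log2 change 0.93, SE 0.09, adjusted p = 0.000123, corrected 0.70, adjusted p = 0.000477). *Mylk4*, a myosin light chain kinase of striated muscle, measured 167, 218, 237 and 173 CPM against 364, 381, 357 and 390 CPM (log2 change 0.91, SE 0.13, adjusted p = 0.00175). *Lrrc15*, a leucine-rich repeat protein of the cell surface, went from 12.1 to 18.8 CPM up to 26.8 to 33.1 CPM (log2 change 0.98, adjusted p = 0.0013). *Huwe1*, a large ubiquitin ligase, *Apmap* and *Sqor*, the mitochondrial enzyme that oxidises sulfide, rose by 0.60, 0.54 and 0.47. These 7 genes passed the corrected test and all 8 refits.

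Among the genes with the largest changes, many had few reads. *Cdh4*, a cadherin of cell adhesion, rose from 0.843 to 1.48 CPM up to 2.49 to 4.38 CPM (log2 change 1.55, SE 0.21, adjusted p = 0.0013), and *Apln*, which encodes the peptide apelin, from 4.82 to 9.63 CPM up to 14.3 to 15.8 CPM (log2 change 1.16, adjusted p = 0.0094). *Ighg2c*, an immunoglobulin heavy chain constant gene, rose from 0.855 to 1.00 CPM up to 1.84 to 2.95 CPM (log2 change 1.33, adjusted p = 0.0094). Reads that match it and near-identical members of its family were not counted. *Aff2* and *Foxo6os* rose by 1.22 and 1.20 (adjusted p = 0.0116 and 0.0126). These 5 passed all refits and the correction, whereas *Ghrl*, *Slamf1*, *Pvt1* and *Rp1* (log2 changes of 1.64, 1.57, 1.29 and 1.26) passed 2, 1, 3 and 4 of the refits, and *Ghrl* and *Slamf1* lost the call with the correction (adjusted p = 0.0525 and 0.0686). On the other side, *Runx3*, a factor of lymphocytes, fell from 0.923 to 2.76 CPM down to 0.379 to 0.691 CPM (log2 change -2.02, SE 0.40, adjusted p = 0.0132), and *Cytip*, of leukocytes, fell by 1.49 (adjusted p = 0.0101), both in all refits and with the correction. *Slfn4*, *Cnih2*, *Dancr*, *Snhg20*, *Mir17hg* and *Epop* fell by 2.71, 1.66, 1.28, 1.26, 1.23 and 1.18 and passed 1, 2, 0, 2, 2 and 2 of the refits. With the correction, of these 6 only *Mir17hg* passed (adjusted p = 0.0499), and the others lay between 0.06 and 0.132. *Slfn4* is also a marker of neutrophils, of whose 7 tested markers 6 had a log2 change below 0 (median -1.11) and no other was called. The 17 neutrophil markers summed to 12.7 to 15.9 CPM at 8 weeks and 6.07 to 13.6 CPM at 12 weeks, and their part in the result was not tested.

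Among the genes that rose, the largest log2 change was that of *Kap*, a gene of the proximal tubule of the kidney, with 2, 0, 0 and 0 counts at 8 weeks and 124, 22, 11 and 10 at 12 weeks, so that 12-week replicate 1 held most of them. The summed counts give a ratio of 77.9 (95% counting interval 21.2 to 649, exact). That interval covers the counting of pooled reads only and leaves out the spread between animals. The edgeR test gave an adjusted p of 0.0168, and the gene passed 6 of 8 refits. Of the other kidney markers *Umod* had no read at 8 weeks and at most 0.0646 CPM at 12 weeks, and the 9 kidney markers other than *Kap* summed to 0.522 to 1.96 CPM at 8 weeks and 0.968 to 1.60 CPM at 12 weeks. In the kidney libraries *Kap* reached 17886 to 25730 CPM, against at most 5.71 CPM in heart. *Rn7sk* and *Mir6236* fell by 6.11 and 4.56 on the log2 scale, but only 8-week replicate 1 was high, with 109 and 105 CPM against at most 2.06 and 5.08 CPM in all other heart libraries. Without that library the log2 changes were -1.66 and -1.30 (adjusted p = 0.0882 and 0.0646), and with all libraries and the correction neither passed (adjusted p = 0.0537 and 0.0556).

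Of the 27 tested genes that the study names for heart, 5 rose and 5 fell, and 2 rose and 0 fell with the correction. This list was drawn up by the study on the same libraries, so its count is no independent evidence of a direction. Besides genes already described, *Zfp984* fell from 26.4, 16.7, 16.2 and 6.61 CPM to 4.15, 4.37, 5.36 and 13.0 CPM (log2 change -1.29, adjusted p = 0.0435, corrected adjusted p = 0.112, 2 of 8 refits). *Nppb*, the natriuretic peptide released on wall stretch, measured 66.8, 26.1, 30.2 and 22.1 CPM against 94.1, 74.4, 90.5 and 56.1 CPM and did not pass (log2 change 1.12, adjusted p = 0.126). With 8-week replicate 1 left out it passed (adjusted p = 0.0381). *mt-Co3* (log2 change -1.78, adjusted p = 0.0507), *Cyp2e1* (1.75, 0.0805) and *S100a8* (-1.72, 0.186) did not pass either.

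Whether heart changed differently from the other organs was tested by the difference between their changes over the same 4 weeks. The genes were those chosen by heart counts. Organs of the same mouse can be among the libraries, and the test did not account for that. Against kidney, 55 genes passed (0.366%), in 30 of which the heart change lay above the kidney change. Against liver, 1003 passed (6.68%), with 554 above and 449 below. The correction for GC content and length was not run on these tests, so the trends of the heart libraries were not taken out. The counts are therefore not counts of age changes particular to heart. *Nckap5* changed by 0.01 in kidney, a difference of 1.39 from heart (SE 0.33, adjusted p = 0.0462), with kidney levels of 4.24 to 6.40 CPM at 8 weeks and 5.01 to 6.02 CPM at 12 weeks. *Angptl4* stood at -0.96 in kidney, 2.24 below heart (SE 0.46, adjusted p = 0.0216), and *mt-Atp6* at 0.87, 2.07 above it (adjusted p = 0.0104). *Nr4a1* had 6.19 to 11.2 CPM in kidney at 8 weeks and 2.37 to 9.31 CPM at 12 weeks, and its change there did not differ from heart past the threshold (heart minus kidney -1.59, SE 0.94, adjusted p = 0.48). *Sik1* stood at 0.03 in kidney and -1.45 in liver, and its difference from heart was -1.49 (SE 0.47, adjusted p = 0.159) and -0.01 (SE 0.47), neither past the threshold. The *Per1* change of -0.66 in heart stood beside -0.58 in kidney and -0.41 in liver, and none of the 6 clock genes drawn in the plot of the 3 tissues passed the test of a difference from heart (lowest adjusted p = 0.313).

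**Figure D5:**
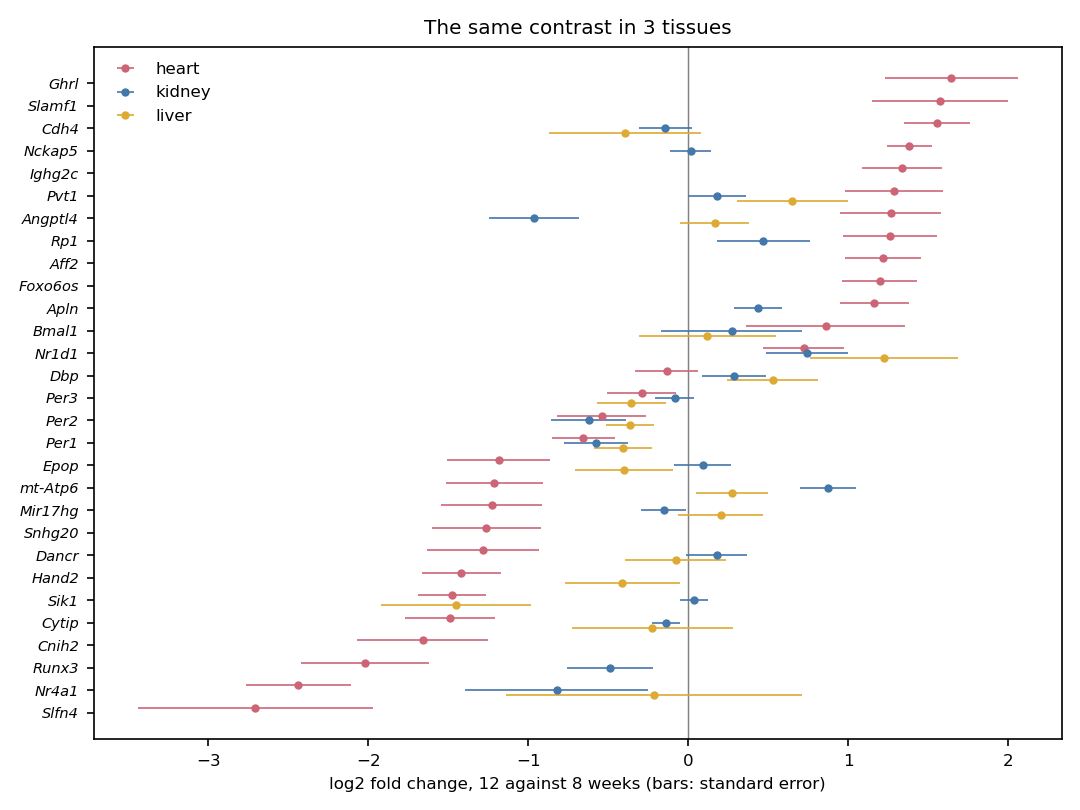
Log2 fold change at 12 against 8 weeks in heart, kidney and liver (bars: standard error) for the genes with the largest changes in heart and 6 clock genes; *Kap* is left off, and a kidney or liver value is drawn only where the mean level was at least 1 CPM. *Nckap5* lies at 1.38 in heart and 0.01 in kidney, and *Per1* lies below 0 in all 3 tissues.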

How the data were processed

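RNA of heart, kidney and liver was sequenced as read pairs. The deposited files hold whole-number read counts per gene, which the authors made by trimming with cutadapt 4.2, quality control with FastQC 0.11.9 and alignment with STAR 2.7.11b to GRCm39. The unstranded counts were used, since 49.8% to 50.0% of heart pairs fell on the first strand. Between 70.2% and 73.2% of heart pairs were counted on genes, and reads that map to several places were not counted.

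Groups came from the labels. Genes with a mean count of at least 10 at 8 or 12 weeks were tested with edgeR 4.0.16 (R 4.3.3) by the quasi-likelihood F-test with TMM factors, a mean for each age over the 12 heart libraries and Benjamini-Hochberg adjustment over all 15014 genes, and a gene passed at an adjusted p under 0.05. CPM use the TMM-scaled library sizes. Differences between tissues were tested as interaction terms over all 36 libraries. The study took the organs from the same set of mice, so libraries of different tissues can come from the same animal. The labels do not say which, and the test held no term for the animal. P-values measure only the spread between these samples. On simulated data with 200 changed genes among 15014, 52% of 1.5-fold, 80% of 2-fold and 94.5% of 3-fold changes were recovered. The simulated counts varied independently for each gene, without the trends with GC content and length, so these shares need not hold for the real libraries.

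Alternatives were DESeq2 1.42.0, limma-voom (limma 3.58.1), RLE factors, no count filter, the study's filter, the 8- and 12-week libraries alone, a replicate block and leaving out each library. The correction for GC content and length of the canonical transcript, with and without 12-week replicate 4, was added after seeing the data.

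The members and gene lists were chosen with earlier results of these data known. Genes were named by rule: the 12 highest and 12 lowest changes over 2-fold without overlap, the 6 higher and 6 lower genes with the lowest adjusted p at a mean of at least 20 CPM, members of each list that passed (the 6 with the lowest p where there were more), genes the study names, and 6 clock genes. *Klf6*, *Atf3*, *Nr4a2*, *Ier3*, *Ier5*, *Errfi1*, *Arrdc3*, *Fos*, *Egr1*, *Fkbp5*, *Myh6*, *Ppara*, *Col1a1*, *Col3a1*, *Gata6os*, *Gm28661*, *Gm29216*, *Hrc*, *Camk2b*, *Uqcrq*, *Atp5pd*, *Myl7*, *Sln*, *Mybphl*, *Umod*, *Tnnt2* and all genes under other observations were chosen after their values were seen.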

Additional observations from a re-analysis of the deposited data

Results flagged for a closer look

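In 34 of the 382 groups of 4 heart libraries looked at, over the named genes and both ages, 1 library lay far from the other 3 by Dixon's criterion. Chance alone meets it in about 1 in 20 independent groups with normal spread. The genes here were chosen, can vary together and in part had few reads, so that rate need not hold. Of the 34 groups, 20 were at 8 weeks and 14 at 12 weeks. In 8-week replicate 1, *Rn7sk* (109 CPM), *Mir6236* (105 CPM), *Gm28661* (292 CPM), *Ttn* (2545 CPM), *Pf4* (9.43 CPM), *Hrh2* (1.08 CPM), *Gpr183* (0.763 CPM) and *Kap* (0.0803 CPM) stood high, and *Tsc22d3* (139 CPM) and *Per2* (21.0 CPM) low. In 8-week replicate 2, *Kcnk3* (334 CPM), *Ucp3* (41.4 CPM), *Gata6os* (11.2 CPM) and *Wt1* (6.60 CPM) stood high and *Cd74* (48.1 CPM) low. *Nr4a1* (105 CPM) and *Tnc* (0.775 CPM) stood high in 8-week replicate 3, and *Myh7* (118 CPM), *Fosl2* (29.4 CPM) and *Mcpt4* (0.428 CPM) stood low in 8-week replicate 4.

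At 12 weeks, *Apoe* (128 CPM) and *Kap* (5.71 CPM) stood high and *Cyp2s1* (0.277 CPM) low in replicate 1. *Ucp3* (85.9 CPM), *Prox1* (70.1 CPM) and *H2-Aa* (38.4 CPM) stood high in replicate 2, and *Mybphl* (0.0969 CPM) stood low in replicate 3. In replicate 4, *Tnnt2* (7600 CPM), *Acsl1* (1143 CPM), *Per2* (36.4 CPM), *Zfp984* (13.0 CPM) and *Alb* (2.61 CPM) stood high, and *Slc8a1* (356 CPM) and *Camk2d* (169 CPM) low.

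Testing the difference itself set heart apart from another organ for several named genes. The log2 change in heart minus that in kidney was 2.24 for *Angptl4*, 1.39 for *Nckap5* and -2.07 for *mt-Atp6*. The log2 change in heart minus that in liver was 1.97 for *Cdh4*, 1.9 for *Nckap5*, -1.42 for *Mir17hg* and -1.47 for *mt-Atp6*. It was -3.27 for *Runx3*, -2.67 for *Cnih2*, -5.14 for *Slfn4* and 11.97 for *Kap*. Liver levels were low for *Cdh4*, *Nckap5*, *Runx3*, *Cnih2*, *Slfn4* and *Kap*, with means under 2 CPM at both ages.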

How the results depend on the processing

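The direction of every named gene that passed was kept under all alternatives run, while the number of calls was not. Against 326 genes higher and 363 lower (29 and 41 over 2-fold), DESeq2 gave 626 and 574, no count filter 524 and 609 (72 higher over 2-fold), and the 8- and 12-week libraries alone 218 lower. The GC and length correction gave 137 and 135 (15 and 24 over 2-fold), and without 12-week replicate 4 as well 211 and 208 (20 lower over 2-fold). It ended the call of 43 of 113 named genes. Leaving out 1 library gave 96 to 859 higher and 80 to 992 lower, and over 2-fold 14 to 59 higher and 16 to 46 lower. The interaction with kidney, 55 genes, ran from 18 to 218 when 1 library was left out, with 24 from the 8- and 12-week libraries alone and 87 from limma-voom. That with liver, 1003 genes, ran from 617 to 1424. Neither interaction was run with the GC and length correction. Each mouse was sacrificed at 1 age, so same-numbered heart libraries of both ages are different animals. They did not deviate together (correlations of -0.03, -0.09, -0.03 and 0.03), and whether the numbers link organs of the same mouse was not examined. With a replicate block 324 genes were higher and 369 lower (33 and 46 over 2-fold). Of 918 alternative medians of 54 gene lists, 38 moved, over 19 lists. Depth limits the genes under about 1 CPM most. The cause of these shifts was not tested.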

Other observations

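Further genes passed the test, the corrected test and all 8 refits. Of the matrix, *Hmcn1*, the giant basement membrane protein hemicentin, measured 9.38 to 13.6 CPM at 8 weeks and 17.2 to 29.1 CPM at 12 weeks (log2 change 1.14, adjusted p = 0.00147). *Efemp1*, a fibulin, rose from 5.32 CPM ± 0.692 (SD, n = 4) up to 9.31 to 14.2 CPM (log2 change 1.08, adjusted p = 0.00301), and *Fndc1* rose by 0.69 (adjusted p = 0.00436). In muscle and metabolism, *Lmod3*, which nucleates actin, *Pdp2*, the phosphatase that turns pyruvate dehydrogenase on, and *Ncoa4*, which directs ferritin to degradation, rose by 0.58, 0.68 and 0.65. *Pdp2* thus rose together with *Pdk4*, the kinase of opposite action. *Prlr*, the prolactin receptor, rose by 0.98 (adjusted p = 0.0152).

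Among the genes that fell, *Apold1*, an endothelial early response gene, measured 29.9, 28.2, 23.4 and 14.1 CPM at 8 weeks and 12.3, 10.1, 11.1 and 11.8 CPM at 12 weeks (log2 change -1.08, adjusted p = 0.00524). *Rasd1*, a small GTPase induced by dexamethasone, fell by 1.04 (adjusted p = 0.0067). *Npr1*, the receptor of atrial natriuretic peptide, fell from 22.1 to 25.5 CPM down to 16.5 to 18.1 CPM (log2 change -0.48, adjusted p = 0.00695), and *Apoe*, apolipoprotein E, from 162 to 205 CPM down to 119 to 128 CPM (log2 change -0.56, adjusted p = 0.00507).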
